A study of Mus musculus with 24 samples.

Results

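Mitochondrial carriers and uncoupling proteins were taken as all genes of the array whose symbol begins with Slc25a, together with Ucp1, Ucp2 and Ucp3, and without Slc25a1, Slc25a17 and Slc25a20. This gave 47 genes of the 27248 genes with a symbol, and 43 of them were among the 17206 genes bright enough to be tested. The livers came from male C57Bl/6J mice aged 8 weeks, kept on Safe 04 chow and killed at ZT16, and the RNA was measured on 1-colour arrays. There were 6 fasted and 6 fed mice whose liver lacked Ppara (PPARaLKO, written LKO), and 5 fasted and 5 fed mice with Ppara in the liver (PPARaLWT, written LWT). Fasting lasted 24 h, and fed mice ate freely. The Cre driver of the knockout is not given in the sources used here. The labels list 24 arrays from 22 animals, with 1 fasted and 1 fed LWT animal on 2 arrays each, while the series description states 24 mice, so mice were counted by the animal numbers in the labels and repeat arrays were averaged.

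Mitochondrial carriers are small proteins of the inner mitochondrial membrane that exchange or import nucleotides, phosphate, amino acids, dicarboxylates and cofactors between the cytosol and the matrix. In the liver they link the matrix to gluconeogenesis, the urea cycle, fatty acid oxidation and the transfer of reducing equivalents. The uncoupling proteins belong to the same family, and Ucp1 of brown fat is the member known to let protons back into the matrix to make heat. PPARalpha, the product of Ppara, is a nuclear receptor that drives fatty acid oxidation genes in the fasted liver.

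Levels are log2 signals relative to the 75th percentile of the array, so a level of a gene can be set against itself in other mice but not against another gene. A change was called when limma's Benjamini-Hochberg adjusted p over the 17206 genes was below 0.05. The 75th percentile lay between 444.1 and 614.2 intensity units, and 50% to 58.8% of probes were well above background. Of 3 principal components, the third (5.47% of the variance) set the library fed LKO 3 apart. Leaving it out gave 30 members called with fasting in LKO, 29 with fasting in LWT, 24 between fasted LKO and fasted LWT, 6 between fed LKO and fed LWT, and 16 in the difference of the fasting responses, against 29, 28, 21, 5 and 14 with it. Both Ppara probes were lower in LKO, by 0.86 (SE 0.14, adjusted p = 5.72e-05) and 0.99 (SE 0.14, adjusted p = 8.88e-06) on the log2 scale in fasted LKO relative to fasted LWT, and by 0.66 and 0.84 in fed LKO relative to fed LWT. Whether these probes lie in the deleted exons was not checked. All 8 hepatocyte markers were well above background, and the log2 of their summed signal lay within 12.06 to 12.16 in fasted LKO, 11.98 to 12.19 in fed LKO, 12.04 to 12.16 in fasted LWT and 11.99 to 12.16 in fed LWT. The brightest markers weigh most in this sum. Of the 8, 4 were called higher and 2 lower with fasting in LKO, and 3 higher and 1 lower in LWT. In fasted LKO, 1 was lower than in fasted LWT, and 0 were called between fed LKO and fed LWT.

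Promoter sequence is shown for 4 members on which the results turn: Slc25a34 had the largest genotype difference among the members, Slc25a42 the largest called difference of fasting responses, Slc25a47 was higher with fasting in both genotypes, and Ucp3 did so with a smaller response in LKO. The windows are the 250 bases before each gene's RefSeq start in GRCm38.p6, read 5′ to 3′ along the gene's strand. Capitals mark AGGTCA, the core motif bound by nuclear receptors, or its reverse complement TGACCT. The Slc25a34 window is chr4:141623835-141624084 on the minus strand, Slc25a42 is chr8:70212282-70212531 on the minus strand, Slc25a47 is chr12:108850879-108851128 on the plus strand and Ucp3 is chr7:100472741-100472990 on the plus strand.
Slc25a34: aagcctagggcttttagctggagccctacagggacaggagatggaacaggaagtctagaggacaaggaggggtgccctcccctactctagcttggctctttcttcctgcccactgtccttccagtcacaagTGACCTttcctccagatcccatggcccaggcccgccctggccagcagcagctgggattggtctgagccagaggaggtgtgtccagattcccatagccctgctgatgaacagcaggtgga
Slc25a42: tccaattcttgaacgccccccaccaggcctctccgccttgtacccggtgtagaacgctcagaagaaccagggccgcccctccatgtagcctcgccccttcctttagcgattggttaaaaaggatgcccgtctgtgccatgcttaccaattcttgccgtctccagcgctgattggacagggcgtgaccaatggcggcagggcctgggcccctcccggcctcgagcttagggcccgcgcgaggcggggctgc
Slc25a47: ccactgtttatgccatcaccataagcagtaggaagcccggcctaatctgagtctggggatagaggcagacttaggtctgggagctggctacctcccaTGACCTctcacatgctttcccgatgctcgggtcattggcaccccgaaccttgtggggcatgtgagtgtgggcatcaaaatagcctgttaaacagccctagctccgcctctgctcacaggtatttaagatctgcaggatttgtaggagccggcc
Ucp3: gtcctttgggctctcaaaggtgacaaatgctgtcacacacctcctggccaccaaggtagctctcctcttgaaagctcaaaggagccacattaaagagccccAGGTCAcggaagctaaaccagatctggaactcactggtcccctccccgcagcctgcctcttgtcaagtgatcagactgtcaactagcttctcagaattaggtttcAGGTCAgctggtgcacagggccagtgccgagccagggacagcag
The motif began 119 bases before the start of Slc25a34, 153 bases before that of Slc25a47, and 149 and 44 bases before that of Ucp3. The Slc25a42 window held none. RefSeq windows were at hand for 36 of the 47 members, in 46 windows, and 6 of these windows (13.0%) held it on either strand, near the 14.0% of all 32851 windows. The windows with it that are not shown belong to Slc25a39, Slc25a45 and Ucp1. With fasting, Slc25a45 fell in both genotypes (-1.16 in LKO and -0.92 in LWT). At its brightest probe in the main fit, Slc25a39 was called in LWT alone (0.26), and Ucp1 was well above background in 0 animals. A direct repeat of AGGTCA with 1 base between was in 0 of the 46 windows and in 0.0335% of all. The cAMP response element TGACGTCA, its own reverse complement, was in the windows of Slc25a25 and Slc25a36, which is 4.35% of the member windows against 1.55% of all.

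With fasting in LKO livers, 29 of the 43 tested members were called, 19 higher and 10 lower, where 49.7% of all tested genes were called (23% higher and 26.7% lower). In LWT livers 28 were called, 22 higher and 6 lower, against 44.4% of all genes (22.8% higher and 21.7% lower). The median change of the members was 0.14 in LKO and 0.26 in LWT on the log2 scale, and that of all genes was -0.037 and 0.0050. Fasted and fed livers did not overlap for 20 members in LKO (27.3% of all genes) and for 21 in LWT (34.5% of all genes). The members that were higher in both genotypes numbered 16 (13.6% of all genes), those lower in both numbered 5 (14.7% of all genes), and 3 were called in opposite directions (1.84% of all genes).

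Fasted LKO livers differed from fasted LWT livers in 21 members, 18 lower and 3 higher, where 38% of all genes were called (19.9% lower and 18.1% higher). The levels did not overlap for 15 members, against 25.3% of all genes. Between fed LKO and fed LWT livers 5 members were called, all lower, against 3.98% of all genes (1.99% lower and 1.99% higher), and 7 did not overlap, against 3.68% of all genes. Both fed counts include the dim Slc25a18, which was tested only through the fed LWT livers, where it is high. When probes had to be well above background in at least 11 animals, 4 members were called there, and 673 of all 16286 genes. The difference of the fasting responses, that is, the LKO change less the LWT change, was called for 14 members against 18.3% of all genes, 13 of them negative and 1 positive (10.6% and 7.71% of all genes). The median difference was -0.17 over the members and -0.034 over all genes. These comparisons share mice, since the fasted LWT livers enter both the fasting response and the genotype comparison. The plots of all changes by substrate and of both fasting responses show the pattern described below by transported substrate.

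**Figure D1:**
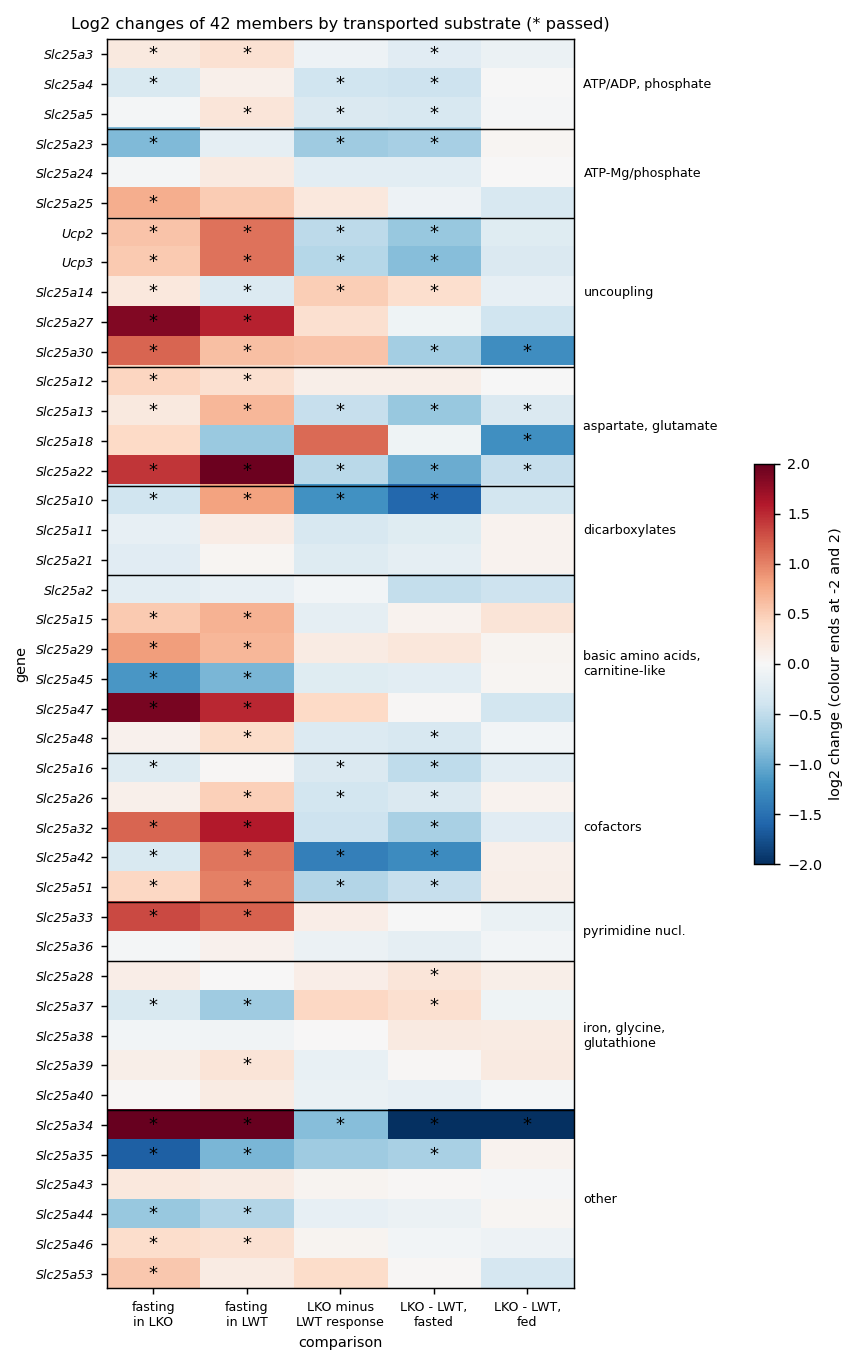
Log2 change of 42 tested members (rows, grouped by transported substrate) in 5 comparisons (columns), with red for higher and blue for lower in the group named first; asterisks mark called changes. The fed genotype column holds 5 called members, all lower in LKO, and the fasted one holds 21, of which 18 are lower in LKO. The 5 include the dim Slc25a18, which was tested only through the fed LWT livers.

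**Figure D2:**
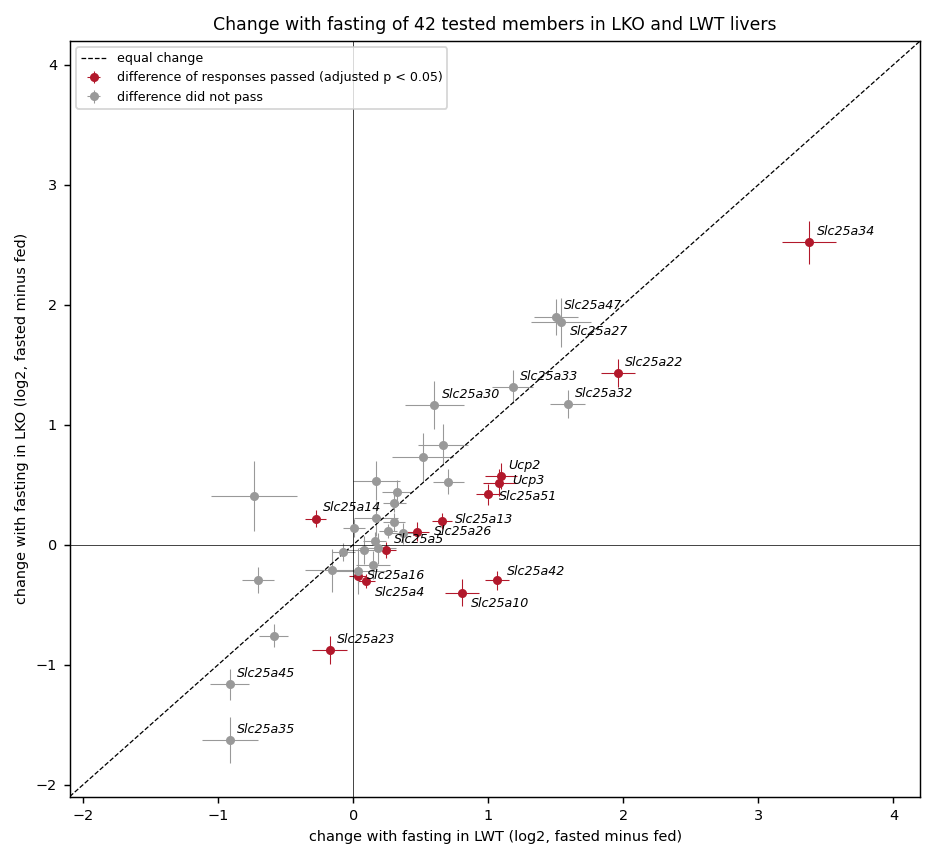
Change with fasting in LKO (vertical axis, log2) against that in LWT (horizontal axis, log2), with 1 point for each of 42 members, bars for the SE, and red for the 14 members whose fasting responses differed between genotypes. All red points but Slc25a14 lie below the line of equal change.

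The ADP/ATP carriers Slc25a4 and Slc25a5 exchange matrix ATP for cytosolic ADP, and Slc25a3 imports the phosphate from which ATP is made. Slc25a4 and Slc25a5 were lower in fasted LKO than in fasted LWT livers, Slc25a3 was called lower there less firmly, and the 2 ADP/ATP carriers also differed in their fasting response. Slc25a4 ranged from 1.22 to 1.34 (median 1.27) in fasted LKO and from 1.37 to 1.75 (median 1.57) in fed LKO livers. LWT livers held Slc25a4 at 1.67, 1.62, 1.62, 1.74 and 1.73 when fasted and at 1.76, 1.49, 1.57, 1.42 and 1.65 when fed. The fasted LKO livers were thus below every other liver, and the groups overlapped in LWT. Slc25a4 fell with fasting in LKO by 0.31 (SE 0.06, adjusted p = 0.000201), had a change of 0.097 in LWT, and the responses differed by -0.40 (SE 0.087, adjusted p = 0.00292). Slc25a5 ranged from 5.48 to 5.80 (median 5.60) in fasted LKO and from 5.37 to 5.78 (median 5.70) in fed LKO livers. LWT livers held Slc25a5 at 6.02, 5.97, 5.88, 5.93 and 5.85 when fasted and at 5.70, 5.68, 5.75, 5.72 and 5.58 when fed. The 5 fasted LWT livers were above all others. Its increase in LWT was 0.24 (SE 0.071, adjusted p = 0.00784), its change in LKO was -0.044, and the responses differed by -0.29 (SE 0.096, adjusted p = 0.0401), a call that 19 of the alternatives did not keep. Slc25a3 was 0.19 higher with fasting in LKO and 0.30 higher in LWT, and was lower in fasted LKO than in fasted LWT livers, by a log2 difference of -0.22 (adjusted p = 0.0337). Of 31 alternatives, 9 did not keep the LKO increase of Slc25a3 and 8 did not keep its genotype difference, which was -0.10 in the authors' deposited table (adjusted p = 0.277). Slc25a31, an ADP/ATP carrier of the testis, was well above background in 1 animal and was not tested.

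The ATP-Mg/phosphate carriers, which are gated by calcium and set the size of the matrix adenine nucleotide pool, were called in neither direction by fasting in LWT at their brightest probes. Slc25a23 ranged from 0.11 to 0.59 (median 0.38) in fasted LKO and from 1.14 to 1.33 (median 1.25) in fed LKO livers. LWT livers held Slc25a23 at 1.26, 0.66, 0.97, 1.26 and 1.07 when fasted and at 1.23, 1.20, 1.14, 1.65 and 0.87 when fed. All 6 fasted LKO livers lay below every other liver, and the LWT groups overlapped. Slc25a23 fell with fasting in LKO by 0.88 (SE 0.12, adjusted p = 2.67e-06), its change in LWT was -0.18, and the difference was -0.70 (SE 0.17, adjusted p = 0.00712). All 3 kept probes of the gene gave a called difference. Slc25a25 rose with fasting in LKO by 0.73 (SE 0.21, adjusted p = 0.00625) and had 0.51 in LWT, where 2 of its other 3 probes were called and the brightest was not. Slc25a24 was called in no comparison, and Slc25a41 was well above background in at most 4 animals and was not tested.

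All 5 tested uncoupling proteins and near relatives were called with fasting in both genotypes, where 49.7% of all genes were called in LKO and 44.4% in LWT. Ucp2, which is abundant in macrophages, ranged from -0.84 to -0.28 (median -0.63) in fasted LKO and from -1.45 to -1.02 (median -1.12) in fed LKO livers. LWT livers held Ucp2 at -0.19, 0.21, 0.38, 0.11 and 0.23 when fasted and at -0.85, -1.06, -0.92, -0.77 and -1.10 when fed. Fasted and fed livers did not overlap in either genotype, and the fasted LKO livers lay below the fasted LWT livers. Ucp2 rose with fasting by 0.57 (SE 0.11, adjusted p = 0.000149) in LKO and by 1.09 (SE 0.12, adjusted p = 3.01e-07) in LWT. In fasted LKO it was 1.69-fold lower than in fasted LWT (log2 difference -0.76 (SE 0.11, adjusted p = 2.02e-05)), and the responses differed by -0.52 (SE 0.16, adjusted p = 0.0261), a call lost when fasted LWT 3 (adjusted p = 0.0541) or fed LWT 5 was left out, and with no filter on dim probes (adjusted p = 0.0512). A second Ucp2 probe gave a difference of responses of -0.66. That probe was also called lower in fed LKO than in fed LWT (-0.47), where the brightest probe gave -0.24, not called.

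Ucp3, best known from skeletal muscle and brown fat, ranged from -1.24 to -0.84 (median -1.13) in fasted LKO and from -1.91 to -1.40 (median -1.54) in fed LKO livers. LWT livers held Ucp3 at -0.71, -0.0053, -0.0049, -0.27 and -0.054 when fasted and at -1.20, -1.30, -1.40, -1.16 and -1.40 when fed. Fasted and fed livers were apart in each genotype, and every LKO liver lay below the LWT livers of the same state, the nearest fed livers being equal after rounding. Ucp3 rose with fasting by 0.52 (SE 0.11, adjusted p = 0.000677) in LKO and 1.08 (SE 0.12, adjusted p = 6.33e-07) in LWT, and the responses differed by -0.57 (SE 0.17, adjusted p = 0.0227). Fasted LKO was lower than fasted LWT by 1.8-fold (log2 difference -0.85 (SE 0.12, adjusted p = 1.03e-05)), while the fed difference of -0.28 was not called (adjusted p = 0.235). Ucp2 and Ucp3 are neighbours on chromosome 7. Ucp1 was well above background in 0 of the 22 animals and has no level here. Of 5 skeletal muscle markers, Ckm and Acta1 were not bright enough to be tested and the other 3 were called in no comparison.

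Slc25a14, Slc25a27 and Slc25a30 are relatives of the uncoupling proteins whose transported substrates are less settled. Slc25a27 ranged from -1.99 to -1.18 (median -1.38) in fasted LKO and from -3.98 to -2.79 (median -3.38) in fed LKO livers. LWT livers held Slc25a27 at -1.23, -1.38, -1.38, -1.47 and -1.59 when fasted and at -3.08, -3.67, -2.57, -2.93 and -2.48 when fed. Fasted livers were above all fed livers in each genotype, and LKO and LWT overlapped. The increase was 1.85 (SE 0.20, adjusted p = 2.86e-07) in LKO and 1.54 (SE 0.22, adjusted p = 1.28e-05) in LWT, with a difference of 0.31 that was not called (adjusted p = 0.529). With normexp background correction the increase was 1.07 in LKO and 0.94 in LWT, both called.

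Slc25a30 ranged from -0.27 to 0.22 (median -0.082) in fasted LKO and from -1.74 to -0.74 (median -1.22) in fed LKO livers. LWT livers held Slc25a30 at 0.55, 0.93, 0.84, 0.36 and 0.47 when fasted and at 0.26, 0.30, -0.32, 0.67 and -0.77 when fed. The fed LKO livers were low except for an overlap with the lowest fed LWT liver, and the fed LWT livers were widely spread. Slc25a30 was lower in fed LKO than in fed LWT by 2.37-fold (log2 difference -1.24 (SE 0.21, adjusted p = 0.000836)) and in fasted LKO than in fasted LWT by 1.6-fold (-0.68 (SE 0.21, adjusted p = 0.0133)). A second probe that was well above background in every animal gave both calls too. The third kept probe was well above background in 0 of 6 fed LKO and 2 of 5 fed LWT livers, so its fed difference is not used here. At its brightest probe, Slc25a30 rose with fasting by 1.16 (SE 0.20, adjusted p = 5.43e-05) in LKO and 0.60 (SE 0.22, adjusted p = 0.0292) in LWT, and the LWT call was lost under 5 alternatives.

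Slc25a14 ranged from -0.085 to 0.34 (median 0.21) in fasted LKO and from -0.091 to 0.016 (median -0.044) in fed LKO livers. LWT livers held Slc25a14 at -0.23, -0.35, -0.027, -0.026 and -0.15 when fasted and at 0.080, 0.022, 0.24, 0.027 and 0.23 when fed. The LWT groups did not overlap and the LKO groups did. It rose with fasting in LKO by 0.22 (SE 0.070, adjusted p = 0.0133) and fell in LWT by 0.28 (SE 0.08, adjusted p = 0.00546), and the difference of 0.50 (SE 0.10, adjusted p = 0.0022) was the 1 positive call among the 14.

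**Figure D3:**
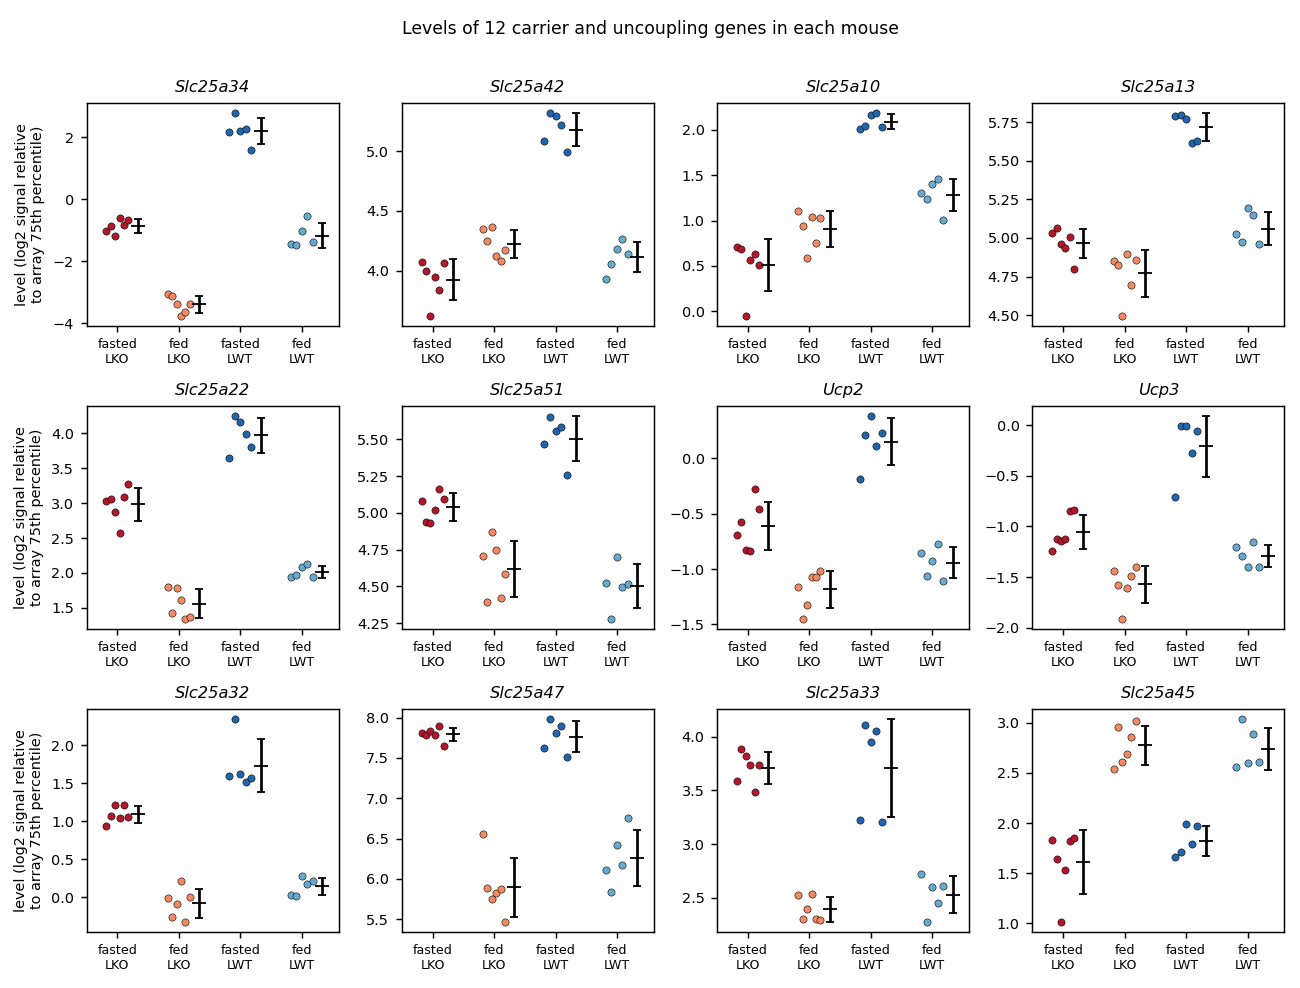
Level of 12 members in each mouse (log2 signal relative to the array's 75th percentile), with points for mice and a black mark for the mean ± SD of fasted LKO (n = 6), fed LKO (n = 6), fasted LWT (n = 5) and fed LWT (n = 5). The fasted LWT livers stand above the fasted LKO livers for Slc25a34, Slc25a42, Slc25a10, Slc25a13, Slc25a22, Slc25a51, Ucp2, Ucp3 and Slc25a32.

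Aspartate and glutamate carriers feed the malate-aspartate shuttle, which moves reducing equivalents into the matrix, and the urea cycle. Slc25a13 is the aspartate/glutamate carrier of the liver. It ranged from 4.80 to 5.06 (median 4.98) in fasted LKO and from 4.50 to 4.90 (median 4.84) in fed LKO livers. LWT livers held Slc25a13 at 5.79, 5.80, 5.77, 5.61 and 5.63 when fasted and at 5.03, 4.97, 5.20, 5.15 and 4.96 when fed. All fasted LWT livers lay above all others, and fed LKO lay below fed LWT. Slc25a13 was 1.69-fold lower in fasted LKO than in fasted LWT (log2 difference -0.75 (SE 0.072, adjusted p = 7.97e-08)), and 1.22-fold lower in fed LKO (-0.29 (SE 0.072, adjusted p = 0.023)), a call lost under 5 alternatives. Its increase with fasting was 0.19 (SE 0.068, adjusted p = 0.0226) in LKO and 0.66 (SE 0.075, adjusted p = 6.26e-07) in LWT, with a difference of -0.46 (SE 0.10, adjusted p = 0.00311). A second Slc25a13 probe gave a difference of responses of -0.40, not called. Without fed LKO 3 the LKO increase was 0.14 with adjusted p = 0.0574.

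Slc25a22, a glutamate carrier, rose with fasting in both genotypes. It ranged from 2.58 to 3.28 (median 3.05) in fasted LKO and from 1.35 to 1.80 (median 1.52) in fed LKO livers. LWT livers held Slc25a22 at 3.64, 4.25, 4.17, 4.00 and 3.81 when fasted and at 1.94, 1.97, 2.09, 2.13 and 1.94 when fed. Fasted livers were above all fed livers, and LKO was below LWT in each state. The increase was 2.69-fold in LKO (log2 1.43 (SE 0.12, adjusted p = 5.91e-09)) and 3.89-fold in LWT (1.96 (SE 0.13, adjusted p = 5.22e-10)). Fasted LKO was 1.98-fold lower than fasted LWT (log2 difference -0.99 (SE 0.12, adjusted p = 2.48e-06)). The fed difference of -0.46 (SE 0.12, adjusted p = 0.0381) was lost under 11 alternatives, and the difference of responses of -0.53 (SE 0.17, adjusted p = 0.0376) under 14, among them leaving out fed LKO 3 (adjusted p = 0.0504).

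The other 2 carriers of this group were less clear. Slc25a12, the aspartate/glutamate carrier of muscle and brain, was 0.44 (SE 0.10, adjusted p = 0.00143) higher with fasting in LKO and 0.32 (SE 0.11, adjusted p = 0.0253) higher in LWT. The LKO increase was called at 2 of its 5 kept probes (range -0.038 to 0.45) and the LWT increase at all 5, and 4 alternatives did not keep the LWT call. No genotype difference was called at its brightest probe. Of the 5 probes, 1 was called between fasted LKO and fasted LWT (range -0.35 to 0.11). For the difference of responses 1 was called too (range -0.46 to 0.11). Slc25a18, a second glutamate carrier, was well above background in 6 of 22 animals. It ranged from -5.98 to -4.80 (median -5.28) in fasted LKO and from -6.73 to -5.22 (median -5.67) in fed LKO livers. LWT livers held Slc25a18 at -4.84, -5.55, -5.01, -5.25 and -5.49 when fasted and at -4.78, -5.08, -4.97, -4.42 and -3.20 when fed. It was low in fed LKO, where no liver overlapped fed LWT. The difference of -1.22 (SE 0.31, adjusted p = 0.0254) between fed LKO and fed LWT was its 1 call, with the probe well above background in 1 of 6 fed LKO and 3 of 5 fed LWT livers. Without the fed LWT livers the probe would have been well above background in 3 animals, under the 5 needed for testing, so the gene was tested only through the group where it is high. The difference was -0.33 with normexp background correction, and 6 of the 29 alternatives that tested the gene did not keep the call. In the authors' deposited table and with the stricter filter on dim probes the gene was not tested. All 4 enzymes of the malate-aspartate shuttle were tested. With fasting, Got1 rose in LKO by 1.24 (SE 0.17, adjusted p = 5.78e-06) and in LWT by 2.30 (SE 0.19, adjusted p = 1.13e-08), and Got2 fell in LKO by 0.38 and rose in LWT by 0.36. In LKO 1 enzyme was higher and 2 were lower, while in LWT 3 were higher, and 3 of the 4 had a lower response in LKO. Got2 was lower in fasted LKO than in fasted LWT livers, by a log2 difference of -0.84 (SE 0.057, adjusted p = 6.55e-10).

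Slc25a10, the dicarboxylate carrier, exports malate or succinate for phosphate and takes part in gluconeogenesis. It ranged from -0.046 to 0.71 (median 0.60) in fasted LKO and from 0.59 to 1.11 (median 0.99) in fed LKO livers. LWT livers held Slc25a10 at 2.01, 2.04, 2.17, 2.19 and 2.03 when fasted and at 1.31, 1.24, 1.40, 1.46 and 1.00 when fed. The fasted LWT livers were above every other liver, and the LKO groups overlapped. Slc25a10 fell with fasting in LKO by 0.40 (SE 0.12, adjusted p = 0.00658) and rose in LWT by 0.81 (SE 0.13, adjusted p = 2.95e-05), so its responses were opposite and differed by -1.21 (SE 0.17, adjusted p = 7.64e-05). Fasted LKO was 2.98-fold lower than fasted LWT (log2 difference -1.58 (SE 0.12, adjusted p = 3.79e-09)), and the fed difference of -0.37 was not called (adjusted p = 0.102). The oxoglutarate carrier Slc25a11 and the oxoadipate carrier Slc25a21 were called in no comparison at their brightest probes. The other Slc25a11 probe was called higher with fasting in LWT (0.27, adjusted p = 0.0478) and lower in fasted LKO than in fasted LWT (-0.36, adjusted p = 0.00981), and 1 of the other Slc25a21 probes was called lower there (-0.36, adjusted p = 0.0428). Without fed LKO 3 both genes were called lower with fasting in LKO, Slc25a11 at -0.29 (adjusted p = 0.00778) and Slc25a21 at -0.47 (adjusted p = 1.98e-04). Their differences of responses were then called too, at -0.44 (adjusted p = 0.0148) for Slc25a11 and -0.51 (adjusted p = 0.0079) for Slc25a21, and so was the fasted genotype difference of Slc25a11 (-0.25, adjusted p = 0.0257).

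Carriers of ornithine and basic amino acids serve the urea cycle, and Slc25a45, Slc25a47 and Slc25a48 lie in the branch near the carnitine carrier. Slc25a47, a carrier enriched in liver, ranged from 7.65 to 7.90 (median 7.80) in fasted LKO and from 5.47 to 6.56 (median 5.85) in fed LKO livers. LWT livers held Slc25a47 at 7.62, 7.98, 7.81, 7.90 and 7.51 when fasted and at 6.12, 5.84, 6.42, 6.17 and 6.75 when fed. Fasted livers were above all fed livers, and LKO and LWT overlapped in each state. Its increase was 3.73-fold in LKO (log2 1.90 (SE 0.15, adjusted p = 3.91e-09)) and 2.83-fold in LWT (1.50 (SE 0.16, adjusted p = 4.15e-07)). The difference of 0.40 was not called (adjusted p = 0.237). Its neighbour on chromosome 12, the basic amino acid carrier Slc25a29, rose by 0.83 (SE 0.17, adjusted p = 0.000344) in LKO and 0.66 (SE 0.18, adjusted p = 0.00624) in LWT.

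Slc25a45 ranged from 1.02 to 1.85 (median 1.73) in fasted LKO and from 2.54 to 3.01 (median 2.77) in fed LKO livers. LWT livers held Slc25a45 at 1.66, 1.71, 1.99, 1.79 and 1.97 when fasted and at 2.56, 3.04, 2.60, 2.89 and 2.61 when fed. Fed livers were above all fasted livers in each genotype. It fell with fasting by 2.24-fold in LKO (log2 -1.16 (SE 0.13, adjusted p = 3.31e-07)) and 1.89-fold in LWT (-0.92 (SE 0.14, adjusted p = 2.7e-05)). The ornithine carrier Slc25a15, which brings ornithine to the matrix step of the urea cycle, rose by 0.52 (SE 0.10, adjusted p = 0.000286) in LKO and 0.70 (SE 0.11, adjusted p = 4.41e-05) in LWT, and no genotype difference was called. Slc25a48 rose in LWT by 0.37 (SE 0.096, adjusted p = 0.00367) and was lower in fasted LKO than in fasted LWT livers, by a log2 difference of -0.32 (adjusted p = 0.00839), while a second probe gave no call in either. Slc25a2 was called in no comparison of the main fit. Some alternatives called it lower in fasted LKO than in fasted LWT. Among them were the authors' deposited table (-0.24, adjusted p = 0.037) and leaving out fed LKO 3 (-0.48, adjusted p = 0.0495) or fasted LWT 2 (-0.62, adjusted p = 0.0132). Of the 6 urea cycle genes tested, 4 were higher and 1 was lower with fasting in LKO and likewise in LWT. Asl, the argininosuccinate lyase, rose by 0.87 in LKO and 1.06 in LWT, Arg1, the arginase of the cycle, by 0.60 and 0.87, and Otc fell by 0.81 in LKO and 0.37 in LWT.

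Cofactor carriers bring coenzymes into the matrix. The 5 described here were lower in fasted LKO than in fasted LWT livers, where 19.9% of all genes were called lower. Slc25a42 imports coenzyme A, which activates fatty acids in the matrix. It ranged from 3.62 to 4.07 (median 3.97) in fasted LKO and from 4.08 to 4.36 (median 4.21) in fed LKO livers. LWT livers held Slc25a42 at 5.09, 5.32, 5.30, 5.22 and 4.99 when fasted and at 3.93, 4.06, 4.18, 4.26 and 4.14 when fed. The fasted LWT livers were above all others, and the fasted LKO livers were below the fed LKO livers. Slc25a42 fell with fasting in LKO by 0.30 (SE 0.08, adjusted p = 0.00455) and rose 2.1-fold in LWT (log2 1.07 (SE 0.089, adjusted p = 1.27e-08)). Its responses differed by -1.37 (SE 0.12, adjusted p = 4.67e-07), with the same sign and a call at all 3 kept probes. Fasted LKO was 2.39-fold lower than fasted LWT (log2 difference -1.26 (SE 0.086, adjusted p = 6.21e-10)), and fed LKO and fed LWT were not called apart (0.11, adjusted p = 0.593).

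Slc25a51, the NAD carrier, ranged from 4.93 to 5.17 (median 5.05) in fasted LKO and from 4.39 to 4.87 (median 4.65) in fed LKO livers. LWT livers held Slc25a51 at 5.47, 5.65, 5.55, 5.59 and 5.26 when fasted and at 4.53, 4.28, 4.70, 4.49 and 4.52 when fed. Fasted livers were above fed livers in each genotype, with fasted LKO below fasted LWT. The increase was 0.42 (SE 0.087, adjusted p = 0.000434) in LKO and 1.00 (SE 0.095, adjusted p = 6.78e-08) in LWT, and the responses differed by -0.58 (SE 0.13, adjusted p = 0.00343). A second Slc25a51 probe gave a called increase in both genotypes, but its difference of responses of -0.32 and its fasted genotype difference of -0.22 were not called. Slc25a32, which carries folate and FAD, ranged from 0.94 to 1.22 (median 1.06) in fasted LKO and from -0.32 to 0.21 (median -0.053) in fed LKO livers. LWT livers held Slc25a32 at 1.60, 2.35, 1.63, 1.51 and 1.57 when fasted and at 0.035, 0.012, 0.28, 0.17 and 0.21 when fed. Fasted LWT 2 stood above its group, and fasted livers lay above fed livers in both genotypes. Slc25a32 rose 2.25-fold in LKO and 3.01-fold in LWT, with a difference of -0.42 that was not called (adjusted p = 0.0993), and was lower in fasted LKO than in fasted LWT livers, by a log2 difference of -0.64 (SE 0.12, adjusted p = 0.000335). Its second probe gave -0.15 there and was not called.

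Slc25a26, which carries S-adenosylmethionine, ranged from 0.074 to 0.38 (median 0.15) in fasted LKO and from -0.023 to 0.18 (median 0.056) in fed LKO livers. LWT livers held Slc25a26 at 0.51, 0.66, 0.44, 0.51 and 0.28 when fasted and at -0.079, -0.20, -0.086, 0.20 and 0.18 when fed. The LWT groups did not overlap and the LKO groups did. Its increase in LWT was 0.47 (SE 0.083, adjusted p = 9.93e-05), its change in LKO 0.11 was not called, and the difference of -0.37 (SE 0.11, adjusted p = 0.0281) was lost under 6 alternatives. These values are those of the brightest of its 3 kept probes. The LKO change ranged from -0.34 to 0.11 over the 3, and 1 of the other probes was called. The difference of responses was called at all 3 (range -0.60 to -0.37). Slc25a16, linked to coenzyme A in the mitochondrion, ranged from 1.22 to 1.40 (median 1.28) in fasted LKO and from 1.30 to 1.70 (median 1.59) in fed LKO livers. LWT livers held Slc25a16 at 1.94, 1.69, 1.84, 1.78 and 1.77 when fasted and at 1.82, 1.67, 1.83, 1.75 and 1.79 when fed. The fasted LKO livers were below all LWT livers. Slc25a16 was lower in fasted LKO than in fasted LWT livers, by a log2 difference of -0.50 (SE 0.064, adjusted p = 3.44e-06), but a second probe gave 0.11 and was not called. It fell with fasting in LKO by 0.26 (SE 0.06, adjusted p = 0.00136), where the second probe gave 0.26, not called, and the difference of responses of -0.29 (SE 0.090, adjusted p = 0.0297) was lost under 6 alternatives.

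Slc25a33, a pyrimidine nucleotide carrier, ranged from 3.49 to 3.88 (median 3.74) in fasted LKO and from 2.29 to 2.54 (median 2.35) in fed LKO livers. LWT livers held Slc25a33 at 3.22, 4.11, 3.95, 4.05 and 3.21 when fasted and at 2.72, 2.28, 2.60, 2.45 and 2.61 when fed. Fasted livers were above all fed livers in each genotype, and LKO and LWT overlapped. It rose with fasting by 1.32 (SE 0.14, adjusted p = 1.59e-07) in LKO and 1.18 (SE 0.15, adjusted p = 2.89e-06) in LWT, with no genotype difference. The second such carrier, Slc25a36, was called in no comparison at its brightest probe, while 1 of its other probes was called lower with fasting, at -0.32 in LKO and -0.51 in LWT.

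Among the carriers of iron, glycine and glutathione, the mitoferrin Slc25a37, which feeds iron to haem synthesis, fell with fasting by 0.30 in LKO (adjusted p = 0.0272) and by 0.70 in LWT (adjusted p = 6.39e-05), and was 0.32 higher in fasted LKO than in fasted LWT (adjusted p = 0.0292). That genotype difference was called at 1 of its 4 kept probes (range 0.069 to 0.32) and lost under 8 of 31 alternatives, and the LKO change with fasting was lost under 5. Slc25a28, the other mitoferrin, was 0.25 higher in fasted LKO than in fasted LWT (adjusted p = 0.0156), a call lost without fasted LWT 3 or fasted LWT 5. The summed log2 level of the 4 tested red cell precursor markers was 7.74 to 8.56 in fasted LKO, 7.91 to 9.04 in fed LKO, 7.56 to 8.04 in fasted LWT and 7.91 to 8.35 in fed LWT, with 1 marker of 4 higher in fasted LKO than in fasted LWT. Their part in the result was not tested. Slc25a39, a glutathione carrier, rose in LWT by 0.26 (adjusted p = 0.003). Its LKO change of 0.11 was not called at the brightest probe, while the other kept probe was called at 0.18. Some alternatives called the LKO increase, among them the authors' deposited table (0.14, adjusted p = 0.0145). The other probe was also called lower in fasted LKO than in fasted LWT (-0.21), and the brightest was not (0.029). The glycine carrier Slc25a38 and Slc25a40 were called in no comparison.

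The substrates of the remaining members are not settled here, or lie outside the groups above. At its brightest probe, Slc25a34 ranged from -1.19 to -0.61 (median -0.85) in fasted LKO and from -3.75 to -3.06 (median -3.39) in fed LKO livers. LWT livers held Slc25a34 at 2.17, 2.77, 2.20, 2.27 and 1.59 when fasted and at -1.46, -1.47, -1.04, -0.55 and -1.38 when fed. All fasted LKO livers lay below all fasted LWT livers, and all fed LKO livers below all fed LWT livers. Slc25a34 was 8.39-fold lower in fasted LKO than in fasted LWT (log2 difference -3.07 (SE 0.19, adjusted p = 1.71e-10)) and 4.63-fold lower in the fed state (-2.21 (SE 0.19, adjusted p = 1.61e-07)). It rose 5.73-fold with fasting in LKO (log2 2.52 (SE 0.18, adjusted p = 1.19e-09)) and 10.4-fold in LWT (3.38 (SE 0.20, adjusted p = 1.5e-10)), and the difference of -0.86 (SE 0.27, adjusted p = 0.0311) was lost under 8 alternatives. These values come from the probe at chr4:141174747-141174806 (mm9). A second probe, at chr4:141179390-141179449, gave -0.57 in fasted and -0.14 in fed livers for LKO against LWT, and only the first of these was called. With fasting it gave 0.55 in LKO and 0.98 in LWT, both called, and its difference of responses of -0.43 was not called. With the mean of both probes the change with fasting was 1.53 in LKO and 2.18 in LWT.

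Slc25a35, a relative of Slc25a34, ranged from -4.87 to -4.16 (median -4.43) in fasted LKO and from -3.41 to -1.97 (median -2.85) in fed LKO livers. LWT livers held Slc25a35 at -4.16, -3.71, -3.61, -3.61 and -4.08 when fasted and at -2.66, -2.86, -3.03, -2.76 and -3.30 when fed. Fed livers were above fasted livers in each genotype, and its levels were low. It fell 3.1-fold with fasting in LKO (log2 -1.63 (SE 0.19, adjusted p = 5.99e-07)) and 1.88-fold in LWT (-0.91 (SE 0.21, adjusted p = 0.00133)), and was lower in fasted LKO than in fasted LWT livers, by a log2 difference of -0.64 (SE 0.20, adjusted p = 0.015). With normexp background correction the last of these was -0.18 (adjusted p = 0.169) and no longer called, and the change with fasting was -0.69 in LKO and -0.45 in LWT, both still called. Slc25a44, a carrier of branched-chain amino acids, fell by 0.76 in LKO and 0.59 in LWT at its brightest probe. Its second probe rose by 0.31 in LWT (adjusted p = 0.021) and had -0.027 in LKO, not called. The outer-membrane protein Slc25a46 rose by 0.35 in LKO and 0.30 in LWT. Slc25a53 rose in LKO by 0.53 (SE 0.16, adjusted p = 0.00958), a call lost with normexp background correction (0.10, adjusted p = 0.164) and with slide as a block (adjusted p = 0.142), and Slc25a43 was called in no comparison. Slc25a54 was well above background in 1 animal and was not tested.

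**Figure D4:**
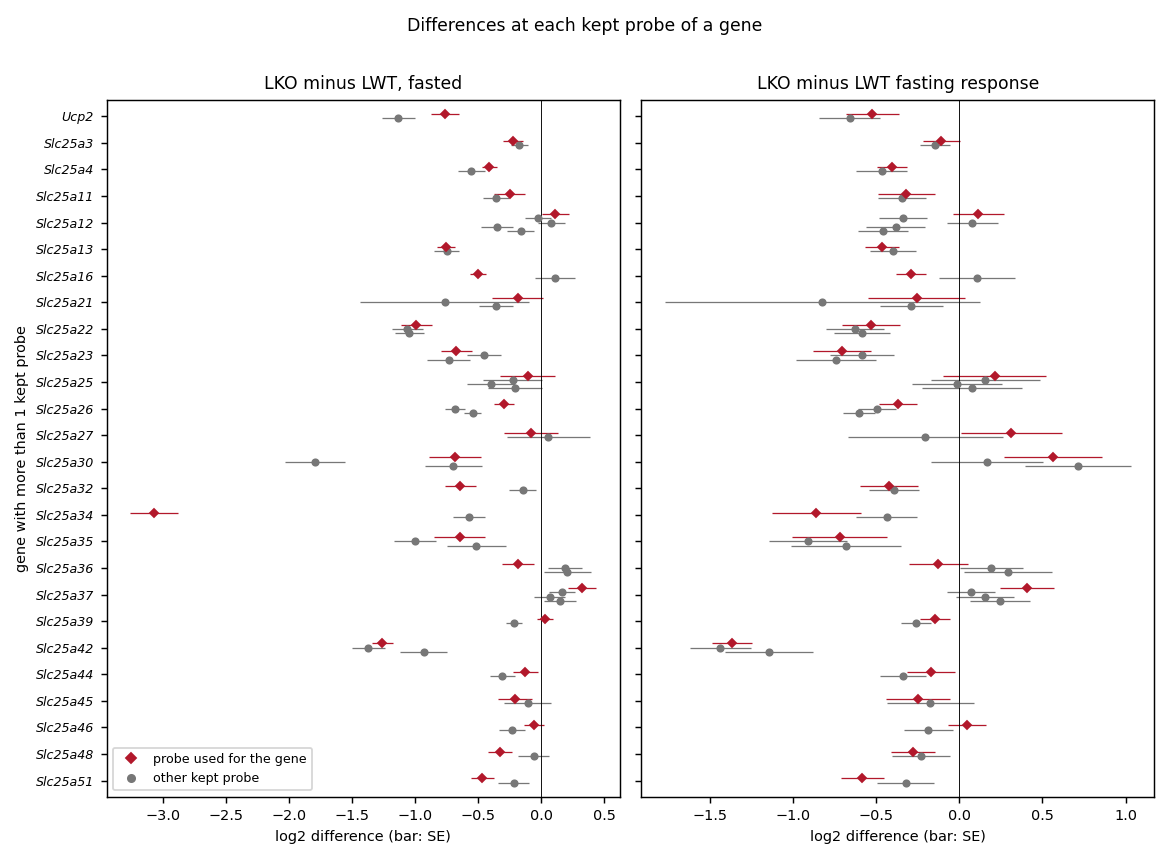
Log2 difference between LKO and LWT in fasted livers (left) and in the fasting response (right) at each kept probe of 26 genes with more than 1, with bars for the SE. The probes of Slc25a34 lie far apart (-3.07 and -0.57 in fasted livers), while all 3 of Slc25a42 lie between -1.37 and -0.93.

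Markers of other liver cells were read beside these results, since in whole liver fewer cells of a type and less RNA per cell cannot be told apart. All 7 endothelial markers were lower in fasted LKO than in fasted LWT livers, led by Tek at -1.08 and Clec4g at -0.94. With fasting, 1 was higher and 3 were lower in LKO and 5 were higher in LWT, and 5 had a lower response in LKO. Their summed log2 level was 4.61 to 4.92 in fasted LKO, 4.83 to 5.36 in fed LKO, 5.09 to 5.72 in fasted LWT and 4.95 to 5.29 in fed LWT. Their part in the result was not tested. Of 12 macrophage markers, a known place of Ucp2, 2 were lower in fasted LKO than in fasted LWT (Lyz2 at -0.63 and Vsig4 at -0.43), 0 differed between fed LKO and fed LWT, and 0 differed in their response. The summed macrophage level was 6.17 to 6.73 in fasted LKO, 6.50 to 6.99 in fed LKO, 5.93 to 6.69 in fasted LWT and 6.48 to 6.92 in fed LWT. Of 4 tested adipocyte markers, Cfd and Cidea were lower in fasted LKO than in fasted LWT livers, with log2 differences of -4.22 and -1.74, and both were lower in fed LKO than in fed LWT, while Adipoq was not bright enough to be tested. Of 6 stellate markers, 4 were lower with fasting in LKO, and 1 was higher and 2 were lower in LWT. Of 4 cholangiocyte markers, Sox9 was higher in LKO than in LWT, by 0.80 when fasted and 0.84 when fed. Of 6 tested lymphocyte markers, 1 was higher and 2 were lower with fasting in LKO, 1 was higher and 3 were lower in LWT, and Cd3g was 0.58 higher in fasted LKO than in fasted LWT. Of 5 neutrophil markers, 1 was lower with fasting in each genotype. No other genotype difference and no difference of responses was called among these 4 lists, and their part in the results was not tested. The mitochondrial pyruvate carrier genes, which belong to another family, differed from each other: Mpc1 rose with fasting by 0.76 in LKO and 0.54 in LWT, and Mpc2 had -0.10 in LKO, not called, and rose by 0.38 in LWT.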

How the data were processed

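The scanner files hold fluorescence intensity values deposited by the authors, made with Agilent Feature Extraction 10.10.1.1 per the submitters' processing notes, background-subtracted and detrended within each array, with no normalization between arrays per the file headers. The authors also deposited a log2 table of 31356 probes, used here as an alternative. Probe coordinates are those of mm9 in the file headers. Control and outlier spots were left out, repeated spots averaged, and each array's 75th percentile subtracted from its log2 processed signals. Arrays of 1 animal were averaged. Probes well above background in at least 5 of 22 animals were kept (28138 of 46291 with a symbol), and a gene was its brightest kept probe. Group means were fitted with limma 3.58.1 in R 4.3.3 over all 22 animals, with Benjamini-Hochberg adjustment over all genes, and the script was tested on simulated data. The number of arrays limits the precision. Mice are separate animals per the labels. Full levels are given for members called with a log2 change of at least 1, or called in the difference of responses, and for Ucp genes. The own values of 1 tested member are not reported here, and the counts over all members include it. The members and gene lists were chosen with earlier results of these data known. Replicate numbers were not used to pair the mice in the main fit. Of 31 pairs with the same number, 5 had deviations correlated above 0.1 (median 0.014, range -0.181 to 0.177). Of 150 pairs with different numbers, 14 did (median -0.00055, range -0.171 to 0.193). Alternatives covered background correction, normalization, the deposited table, the filter, the probe rule, slide, replicate number, repeat arrays and each animal left out.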

Additional observations from a re-analysis of the deposited data

Results flagged for a closer look

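Single mice stood apart from their group in 10 of the 172 groups of values examined, where chance flags about 1 in 20. The library fed LKO 3 did so for Slc25a11 (level 4.48), Slc25a21 (-0.54) and Slc25a5 (5.37), and fasted LKO 3 for Slc25a10 (-0.046) and Slc25a43 (-2.38). Fasted LWT 2 stood apart for Slc25a25 (3.77) and Slc25a32 (2.35). The others were Slc25a36 in fasted LWT 4 (-1.98), Slc25a39 in fasted LWT 5 (6.81) and Slc25a18 in fed LKO 4 (-6.73).

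The change with fasting differed between LKO and LWT livers, by the interaction term of the fit, for 14 members. As LKO minus LWT, the log2 difference was -1.37 for Slc25a42, -1.21 for Slc25a10, -0.86 for Slc25a34, -0.70 for Slc25a23, -0.58 for Slc25a51, -0.57 for Ucp3, -0.53 for Slc25a22, -0.52 for Ucp2, -0.46 for Slc25a13, -0.40 for Slc25a4, -0.37 for Slc25a26, -0.29 for Slc25a16 and -0.29 for Slc25a5. It was 0.50 for Slc25a14.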

How the results depend on the processing

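Of 97 called member changes, 72 were called under every alternative run, and of 118 not called, 95 stayed so. Leaving out 1 animal at a time gave 27 to 30 called members with fasting in LKO, 26 to 29 with fasting in LWT, 19 to 24 between fasted LKO and fasted LWT, 2 to 6 between fed LKO and fed LWT, and 9 to 16 in the difference of responses. The fed count was 2 without fed LWT 4 and 3 without fed LKO 5, fed LWT 3 or fed LWT 5, and the 9 came without fed LWT 2. With no filter on dim probes, 3 members were called between fed LKO and fed LWT and 8 in the difference of responses. Of all 27241 genes then tested, 472 and 2296 were called, against 684 and 3144 of 17206 in the main fit. With the replicate block, 2 members were called between fed LKO and fed LWT, 12 in the difference of responses, 28 with fasting in LKO, 28 with fasting in LWT and 20 between fasted LKO and fasted LWT. Of all 17206 genes, 535, 2800, 8377, 7433 and 6150 were called in the same order. Only 4 of 22 animals correlated best with their own number. Slc25a44 with fasting in LWT turned to 0.29 in the authors' deposited table (adjusted p = 0.0147), whose probe for the gene was the other one. Slc25a16 with fasting in LKO turned to 0.0030 with the mean of kept probes (adjusted p = 0.982). Within slide 1, where each group has 2 arrays, Slc25a25 with fasting in LKO was -0.093 and Slc25a3 was -0.0091, and the cause was not tested. Dim members (Slc25a18, Slc25a53, Slc25a2 and Slc25a35) are limited by their signal over background.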

Other observations

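Other gene groups of the inner membrane were measured on the same arrays. Sfxn1, the mitochondrial serine transporter, fell with fasting in LKO by 0.84 and rose in LWT by 0.29, and was lower in fasted LKO than in fasted LWT livers, by a log2 difference of -1.12 (SE 0.081, adjusted p = 1.77e-09). Sfxn5 fell by 1.03 in LKO and 0.63 in LWT. Of the 5 sideroflexins, 2 were lower in fasted LKO than in fasted LWT and 2 had a lower response in LKO.

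Among 6 coregulators of mitochondrial genes, Ppargc1a, a coactivator induced by fasting, rose by 1.23 (SE 0.23, adjusted p = 0.000126) in LKO and 1.74 (SE 0.25, adjusted p = 9.51e-06) in LWT, and Ppargc1b rose by 0.73 in LWT with 0.21 in LKO, not called. Nrf1 was 0.41 higher in fasted LKO than in fasted LWT, and Tfam, which packages mitochondrial DNA, was lower there, by a log2 difference of -0.47. Of 4 tested import genes, 2 were lower in fasted LKO than in fasted LWT, with Timm9 at -0.49 and Timm22 at -0.28. Of the 3 outer-membrane porins, Vdac3 alone was called between fasted LKO and fasted LWT, at -0.18.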
